A study of Mus musculus with 2 samples.

Results

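Cells marked by genes of circulating myeloid cells were picked out of 2 sections of mouse liver by their transcripts. A cell counted as a member when its 6 markers Itgam, Ly6c2, Ncf1, Cybb, Csf3r and Cxcr2 held at least 2 counts together and the 3 macrophage genes Clec4f, Adgre1 and Csf1r held at most 1. Members also needed at least 10 counts over all genes and a volume of at least 50. Of 25499 cells that passed the count and volume limits, 672 were members, out of 111966 segmented cells in all. Section 1 held 472 members among 9209 such cells, a share of 5.13% (exact 95% interval 4.68% to 5.60%). Section 2 held 200 among 16290, a share of 1.23% (1.06% to 1.41%). Intervals here and below cover counting error alone.

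Neutrophils and monocytes are short-lived white blood cells made in the bone marrow and, around birth, also in the liver. They reach tissue by integrins and selectins, follow chemokines, and kill microbes with an oxidase that turns oxygen into superoxide. In liver they lie inside the narrow sinusoids, close to hepatocytes, while Kupffer cells are the resident macrophages of the same vessels.

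Transcripts were read one by one in frozen tissue by MERFISH, an imaging method that decodes barcoded RNA molecules in place. Both sections carry the tag 2d and the replicate numbers 1 and 2. No age, strain, genotype or treatment is tied to either, and the treated mice with liver metastases in the design text do not match these labels. Nothing says that the sections came from separate animals, so p-values measure counting error and disagreement between 2 sections, which may be technical. In the comparison with other cells that disagreement was pooled over genes. A gene's own disagreement between sections therefore did not enter its p-value there.

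Members were deeper and larger than the cells around them. The median member held 56 counts in section 1 and 20 in section 2, against 26 and 15 in all other cells that passed the limits. Median volume was 1517 and 1475 against 1114 and 1260. Among cells with 10 to 30 counts outside the rule, median volume was 1096.5 and 1318 in members against 946 and 1219. Depth bears on who can be a member: if 10 counts were drawn from each cell, 1.19% of cells in section 1 and 0.488% in section 2 would be expected to pass. Blank barcodes, which name no gene, reached 37.2 and 24.9 per 10000 gene counts in members and 68.7 and 32.1 in other cells. The highest of the 50 blanks held 18 counts in members of section 1 and 2 in section 2, and gene sums no larger than this are not above the blanks. In other cells the highest blank held 257 counts in section 1 and 408 in section 2.

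**Figure D1:**
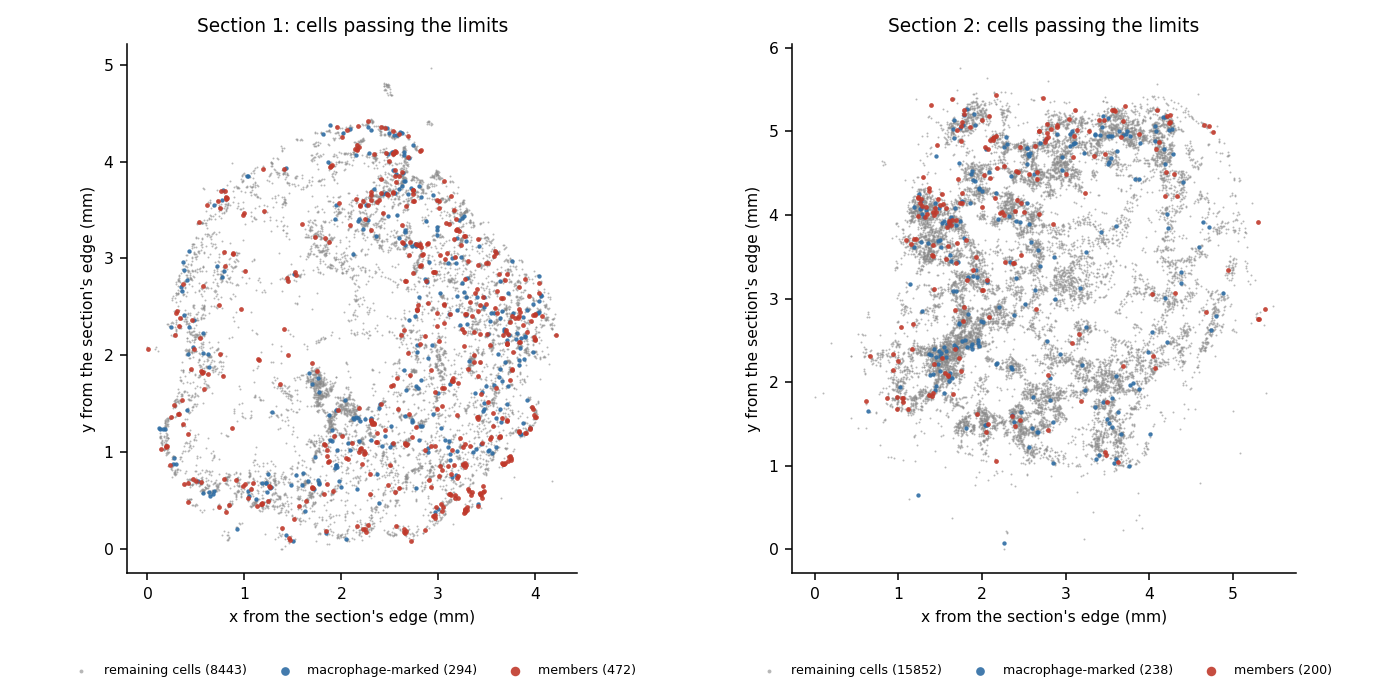
Place of the members in both sections; each point is 1 cell that passed the limits, at its distance in mm from the section's edge on both axes. Members (red, 472 and 200) and macrophage-marked cells (blue, 294 and 238) lie among the remaining cells (grey), over most of the tissue and in local groups.

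The 6 markers were used to choose the members, so their values describe the choice and were not tested. Ncf1, the p47 subunit that switches on the phagocyte oxidase, was found in the most members: 75.4% of members in section 1 and 74.5% in section 2 held it, with 831 and 239 counts. Cybb, the membrane subunit that carries the electrons of that oxidase, was in 31.8% and 9.5% of members, with 236 and 22 counts. Csf3r, the receptor for granulocyte colony-stimulating factor, was in 53.4% and 18%, with 481 and 43 counts. Cxcr2, the receptor for neutrophil-attracting chemokines, was the rarest, in 13.8% and 4.50%, with 76 and 12 counts. Itgam, the alpha chain of the integrin CD11b/CD18, was in 50.8% and 36.0%, with 437 and 80 counts. Ly6c2, a surface protein that is high on inflammatory monocytes, was in 30.3% and 36.5%, with 216 and 105 counts. Both sections thus shared Ncf1 as the marker found in the most members, while Csf3r and Cybb were far less frequent in members of section 2.

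The number of marker counts per member differed between sections. In section 1, 165 members held exactly 2 marker counts, the lowest number admitted, 123 held 3 to 4 and 184 held 5 or more. In section 2 these numbers were 127, 68 and 5. Just outside the limit lay 576 and 671 cells with 1 marker count. On the macrophage side, 69 and 15 members held the 1 count that was allowed, and 95 and 6 cells with 2 or more marker counts were kept out by 2 or more macrophage counts. Clec4f, which defines Kupffer cells, gave 8 counts in members of section 1 and 0 in section 2. In section 1, 77 members carried 1 kind of marker, 199 carried 2, 101 carried 3, 56 carried 4, 30 carried 5 and 9 carried all 6. In section 2 these numbers were 62 for 1 kind, 118 for 2 and 20 for 3, and no member carried more. Ncf1 and Csf3r were found together in 189 members of section 1 and 22 of section 2. Ly6c2 and Csf3r, which lean to monocytes and to neutrophils, met in 76 and 8 members.

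Each marker was also high in cells chosen without it. Cells picked by at least 2 counts of the other 5 markers held 14.9 and 18.1 times the Itgam level of the remaining cells in sections 1 and 2. For Ncf1 the ratio was 14.1 and 10.4. For Csf3r it was 9.89 and 12.2, for Cybb 11 and 9.31, and for Ly6c2 8.31 and 6.56. Cxcr2 gave 16.9 and 9.31, the second from 4 counts in the chosen cells. These ratios were above 6 in both sections for all 6 markers.

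The upstream sequences of 2 markers are shown because both carry the 6 letters GAGGAA or their reverse complement TTCCTC, a form of the core bound by PU.1, a factor that myeloid cells need. They are the 250 bases before the start of the gene in RefSeq's GRCm38.p6 annotation, read along the gene's strand, with the motif in capitals. Itgam lies at chr7:128062390-128062639 on the plus strand and Csf3r at chr4:126024409-126024658 on the plus strand.
Itgam: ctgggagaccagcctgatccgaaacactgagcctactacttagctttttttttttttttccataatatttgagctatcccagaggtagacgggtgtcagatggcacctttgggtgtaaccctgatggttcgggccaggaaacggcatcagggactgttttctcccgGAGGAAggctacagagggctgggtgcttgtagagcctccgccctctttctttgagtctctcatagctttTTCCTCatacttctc
Csf3r: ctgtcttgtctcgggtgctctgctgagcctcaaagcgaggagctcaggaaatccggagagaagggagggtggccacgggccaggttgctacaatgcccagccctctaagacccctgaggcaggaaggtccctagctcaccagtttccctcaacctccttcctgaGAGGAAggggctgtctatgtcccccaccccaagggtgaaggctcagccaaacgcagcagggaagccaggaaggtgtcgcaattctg
Among the 6 markers, 4 genes held the motif on either strand in such a window: Itgam, Csf3r, Cxcr2 and Ly6c2, while the windows of Ncf1 and Cybb did not. It stood in 25.9% of all 27025 genes with a window and in 33.6% of the 375 measured genes outside the rule that had one. A match is a description of the letters and not of binding.

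Outside the rule, members carried more RNA of leukocyte genes than other cells. Levels are counts per 10000 counts of the 491 genes outside the rule. The test was edgeR's quasi-likelihood fit on counts summed by section and cell group, with section as a block and Benjamini-Hochberg adjustment over 416 genes. Of these, 55 passed at an adjusted p of 0.05 (13.2%): 44 were higher in members (10.6%) and 11 lower (2.64%). An unadjusted p under 0.05 in edgeR was reached by 105 of the 416. Of the 55, 50 had the same direction in both sections. Section 2 gave little to these calls, since 32 of the 55 genes had under 10 counts in its members and 7 had 0. With cells limited to 10 to 30 counts, 26 genes passed, of which 12 were higher. Without the section block 6 passed, all higher, and with at least 3 marker counts required 13 passed.

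Itgb2 and Itgal, chains of the CD11/CD18 integrins, rose. Itgb2 encodes CD18, the beta chain that pairs with Itgam. It stood at 138.2 (465 counts) in members and 13.3 in other cells of section 1, and at 55.2 (26 counts) against 7.01 in section 2. Members were higher in both sections, by a log2 change of 3.12 (SE 0.36, edgeR adjusted p = 9.96e-15). Itgal, the alpha chain of LFA-1 and another partner of CD18, was 103.4 against 35.3 and 57.3 against 21.1, a log2 change of 1.40 (SE 0.33, edgeR adjusted p = 0.000627). Of 13 tested genes of the fixed list of leukocyte adhesion, 3 rose and 1 fell, with a median log2 change of 0.24 against -0.12 over all 416 genes. The one that fell was Selp, the P-selectin of platelets and endothelium, with 1 and 0 counts in members against 149 and 33 in other cells. Both sums in other cells were below the highest blank there, at 257 and 408. Itga4, Itgb1, Itgb7, Itgax, Cd24a, Cd82, Cd44 and Slamf1 did not pass, nor did Vcam1, with a log2 change of -0.97 and an edgeR adjusted p of 0.0989.

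The granulocyte list names 34 genes, of which 3 outside the rule were measured, and these 3 rose. Cyba, the p22 subunit that holds Cybb in the membrane, stood at 55.3 against 7.92 in section 1 and at 112.4 against 21.1 in section 2. This was a log2 change of 2.48 (SE 0.34, edgeR adjusted p = 7.19e-11). Cxcr4, the Cxcl12 receptor that keeps young neutrophils in marrow, was 52.3 against 10.0 and 27.6 against 3.18, a log2 change of 2.56 (SE 0.39). Ly6g, the antigen by which mouse neutrophils are sorted, rose by 3.63 (SE 0.93, edgeR adjusted p = 0.00178), from 11 and 5 counts in members against 6 and 28 in other cells. Its 11 counts in section 1 were below the highest blank barcode there, at 18. Ly6g and Ly6c2 are sequence relatives, and how well their probes tell them apart was not tested. A wider set of 21 neutrophil genes, drawn up from the names on the panel, gave 6 higher and 0 lower of 17 tested, with a median log2 change of 0.95. Among them were Sorl1, Emilin2 and Ccr1, of which Ccr1 had 17 counts in members of section 1 and 0 in section 2.

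No gene of the monocyte, macrophage and dendritic cell list passed. Of its 11 tested genes 0 passed in edgeR, 0 had an unadjusted p under 0.05 and 0 passed in any of the alternatives run, DESeq2 included. Their median log2 change was -0.31. Ccr2, the receptor by which classical monocytes leave the marrow, stood at 4.46 against 2.96 and 4.24 against 0.650, from 15 and 2 counts in members. This log2 change of 0.88 had an SE of 0.58 and an edgeR adjusted p of 0.317. Cx3cr1, the fractalkine receptor of patrolling monocytes, had 11 and 1 counts, and Cd14, Flt3, H2-Aa and Itgax each had 5 or fewer in either section. Cd74, the invariant chain of antigen presentation, stood at 19.9 against 24.1 and 23.3 against 23.2. Ctsb, a lysosomal protease abundant in macrophages, was 423.4 against 533.6 and 231.2 against 244.3. Cd68, Mrc1 and Ctsc gave log2 changes of 0.04, -0.55 and -0.31. A longer list of 22 monocyte and dendritic cell genes taken from the panel gave 0 edgeR calls of 18 tested, 4 of them with an unadjusted p under 0.05, and a median of 0.05. Over all 416 tested genes, 105 had an unadjusted p under 0.05 in edgeR. The rule bears on these lists, because monocytes express Csf1r and cells with 2 or more counts of it and the other macrophage genes were kept out of the members but remain among the other cells. The measured genes of the first list stood at 472.2 in members of section 1, at 995.2 in the 95 cells that carried both marker sets and were kept out, and at 1271 in macrophage-marked cells. The absence of calls and this choice of cells cannot be told apart. Set against the name of the group, shared leukocyte genes and 6 of 17 tested neutrophil genes rose against all other cells. The monocyte lists are no check of the monocyte side of the name. Macrophage-marked cells came near the members in section 2. There 15 genes that many leukocytes share stood at 378 in members and 347 in macrophage-marked cells, and the 21 neutrophil genes at 274 and 228. In section 1 the levels were 516.7 and 317.5, and 247 and 120.

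The largest log2 change belonged to Adpgk, an enzyme that phosphorylates glucose with ADP. Its level was 139.7 (470 counts) in members against 8.07 in other cells of section 1, and 70.0 (33 counts) against 4.99 in section 2. The log2 change was 3.87 (SE 0.36, edgeR adjusted p = 4.19e-21). Members were 5.13% of the cells of section 1 that passed the limits and held 8.75% of their counts outside the rule, yet they held 62.4% of all Adpgk counts (exact 95% interval 58.9% to 65.9%). In section 2 they held 1.59% of counts and 18.4% of Adpgk (13% to 24.9%). Slc16a3, a lactate exporter, rose by 3.21 (SE 0.43) from 95 and 6 counts in members. Pkm, Tkt and Pgam1, enzymes of glycolysis and the pentose phosphate path picked here after their values were seen, rose by 2.25, 1.86 and 1.22. Ldha, which makes lactate, did not pass, at 77.6 against 77.9 and 65.8 against 82.6 (log2 change -0.25, SE 0.32, edgeR adjusted p = 0.667).

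Thbs1, the secreted glycoprotein thrombospondin 1, rose in members. It stood at 245.7 (827 counts) against 36.8 in section 1 and 152.7 (72 counts) against 17.8 in section 2, a log2 change of 2.77 (SE 0.33, edgeR adjusted p = 4.43e-14). Thbs1 is also on the megakaryocyte list, where it was the 1 gene of 5 tested to rise and Selp the 1 to fall. Over all tested genes 10.6% were called higher and 2.64% lower. Sorl1, a sorting receptor of the VPS10 family, was 78.1 against 5.98 and 31.8 against 1.95, a log2 change of 3.74 (SE 0.39, edgeR adjusted p = 4.66e-17). Srgn, the proteoglycan core of leukocyte granules, was 20.8 against 3.88 and 42.4 against 2.70, a log2 change of 2.95 (SE 0.38, edgeR adjusted p = 1.07e-11). Adpgk, Sorl1, Itgb2, Srgn and Thbs1 passed in all 11 alternatives, including the one limited to cells of 10 to 30 counts.

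The remaining genes among the 15 largest changes included genes of the actin skeleton and the cell surface. Lcp1, the plastin that bundles actin in blood cells, rose by 2.45 (SE 0.36) and Capg, which caps actin filaments, by 2.32 (SE 0.40). Cd53, a leukocyte tetraspanin, rose by 2.38 (SE 0.55), from 27 counts in members of section 1 and 1 in section 2. Kit, the stem cell factor receptor, stood at 19.9 (67 counts) against 5.30 and 17.0 (8 counts) against 1.64, a log2 change of 2.28 (SE 0.42). Prom1, a membrane glycoprotein of stem and epithelial cells, rose by 2.42 (SE 0.77) from 12 and 3 counts. Of 11 tested genes of the stem and progenitor list 3 rose, namely Kit, Runx1 and Gata2, with a list median of -0.51. Runx1 and Gata2 had 1 count each in members of section 2. Kit and Gata2 are also 2 of the 3 tested genes of a list of mast cell and basophil genes taken from the panel, of which both rose, with a median log2 change of 1.36. Its 4 measured genes stood at 34.5 in members against 17.1 in other cells of section 1 and at 44.5 against 9.33 in section 2. Kit gave 67 of the 116 counts behind the level of 34.5. Mcpt8, a basophil gene, was not higher in section 1, where members held 6.83% of its counts and 8.75% of all counts outside the rule. In section 2 members held 5.61% of Mcpt8 counts and 1.59% of all counts outside the rule. Of 15 genes that many leukocytes share, 10 rose and 0 fell, with a median of 1.91. Ptprc, which encodes CD45, was among the 10 with 29 counts in members of section 1 and 0 in section 2.

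**Figure D2:**
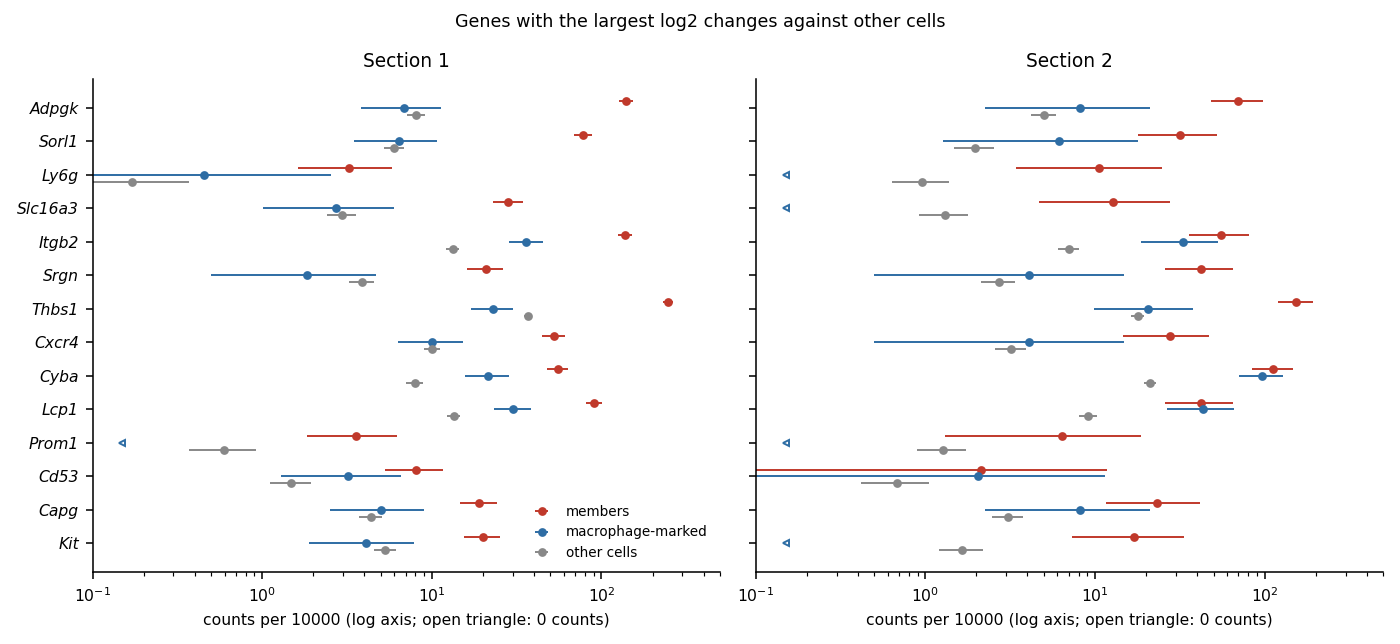
Levels of genes with the largest log2 changes, as counts per 10000 on a log axis with exact Poisson 95% intervals, in members (red), macrophage-marked cells (blue) and all other cells (grey, which include the blue ones). Adpgk lies at 139.7 and 70.0 in members of the sections, against 8.07 and 4.99 in other cells and 6.85 and 8.21 in macrophage-marked cells.

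The 8 most negative changes included genes of red cell precursors, vessels and hepatocytes. Klf1, the master factor of erythroid genes, fell, with a log2 change of -1.55 (SE 0.36) at an adjusted p of 0.000507 in edgeR, from levels of 30.0 against 85.6 and 17.0 against 46.7. Of 4 tested erythroid genes it was the only one called. Cells with at least 2 counts of Epor and Car2 made up 6.36% of members and 6.57% of other cells in section 1, and 3.00% and 1.27% in section 2. Bmp2 and Wnt2, signals of liver endothelium, were the 2 of 8 tested endothelial genes that fell, from 8 and 1 counts of Bmp2 and 4 and 1 of Wnt2 in members. Bmp2 passed in 4 of 10 alternatives and Wnt2 in 1 of 10. Abcc2, an exporter of the bile canaliculus, fell by 1.26 on the log2 scale. Rab17, a GTPase of polarised epithelium, had 13 and 0 counts in members. Against a floor of 3 counts in that section's members, its level in section 2 was at least 2.25-fold lower than the 14.3 of other cells. Dynlt3, a dynein light chain, had 0 counts in members of either section, at least 2.69-fold lower than in other cells of section 1, while section 2 was too shallow for a bound. In other cells Dynlt3 held 84 and 58 counts and Wnt2 184 and 100. These sums were below the highest blank of other cells, at 257 and 408, and above the mean blank, at 48.7 and 18.9. Bmp2, with 276 and 152 counts there, was below the highest blank in section 2.

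Hepatocyte genes still took a large part of the members' counts. The 20 measured genes of the hepatocyte list stood at 3188 per 10000 in members and 3943 in other cells of section 1, and at 3859 and 4957 in section 2. Of 20 tested, 7 had an unadjusted p under 0.05 in edgeR and 1 passed after adjustment, Gjb1, the main gap junction protein of hepatocytes, which fell. Such an unadjusted p was found for 105 of all 416 tested genes. The list's median log2 change was -0.63. Hp, haptoglobin, did not pass, at 910.4 against 802.4 and 1515 against 1637 (log2 change -0.12, SE 0.34, edgeR adjusted p = 0.852). The 4 tested cell cycle genes gave 0 edgeR calls and 0 with an unadjusted p under 0.05, with Mki67 at 161.6 against 153.2 and 29.7 against 23.3. T and NK genes gave 1 call of 10 tested, where 10.6% of all tested genes were called higher. It was Nkg7, at 7.43 against 3.11 and 12.7 against 2.09. B lineage genes gave 0 edgeR calls of 6, with 1 unadjusted p under 0.05, and stellate genes 0 of 6, with 0. The part of these other cell types in the changes above was not tested.

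**Figure D3:**
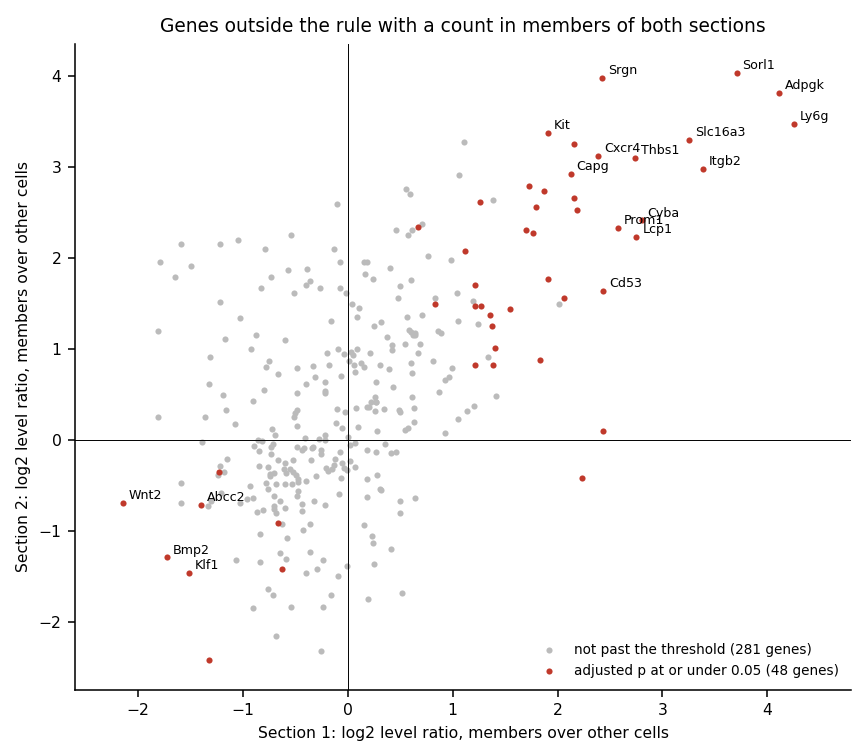
Log2 ratio of each gene's level in members over other cells in section 1 (x axis) and section 2 (y axis), for the 329 tested genes outside the rule with a count in members of both sections; red points passed the edgeR threshold. The named genes with large changes lie in the upper right corner, and 2 red points that lie near or below 0 in section 2 are Sgms2 and Zmpste24.

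Transcripts were also placed inside the segmented outline of their cell. In members, 48.7% and 46.1% of marker transcripts lay within 4 µm of the cell centre in sections 1 and 2. Transcripts of the 15 shared leukocyte genes, which had no part in the rule, gave 48.2% (exact 95% interval 45.9% to 50.6%) and 47.2% (39.7% to 54.8%). Hepatocyte transcripts in the same members gave 26.7% (25.8% to 27.5%) and 20.3% (18.5% to 22.2%). In other cells, hepatocyte transcripts reached 41.7% and 33.7%. Klf1 transcripts inside members of section 1 gave 29.7% against 45.8% in other cells. Blank barcodes, which mark no RNA, gave 31.3% (23.6% to 39.9%) in members of section 1 and 40.6% in other cells. All genes together gave 35.0% and 29.2% in members against 43.7% and 35.0% in other cells. Leukocyte transcripts in other cells gave 46.6% and 37.7%. Within members, marker and leukocyte transcripts thus lay nearer the centre than hepatocyte transcripts. The interval of the blanks in section 1 held the share of hepatocyte transcripts and also that of all genes, so it sets neither apart. In members of section 2 blanks gave 38.5% (13.9% to 68.4%) from 13 counts. Hp was between the groups in section 1, at 32.2% (30.6% to 33.9%) against 24.4% (23.5% to 25.4%) for the remaining hepatocyte genes. In section 2 these shares were 23.4% (20.3% to 26.7%) and 18.3% (16.0% to 20.7%). Hp and Klf1 were chosen for this split after values were seen, and transcripts of 1 cell are not independent.

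**Figure D4:**
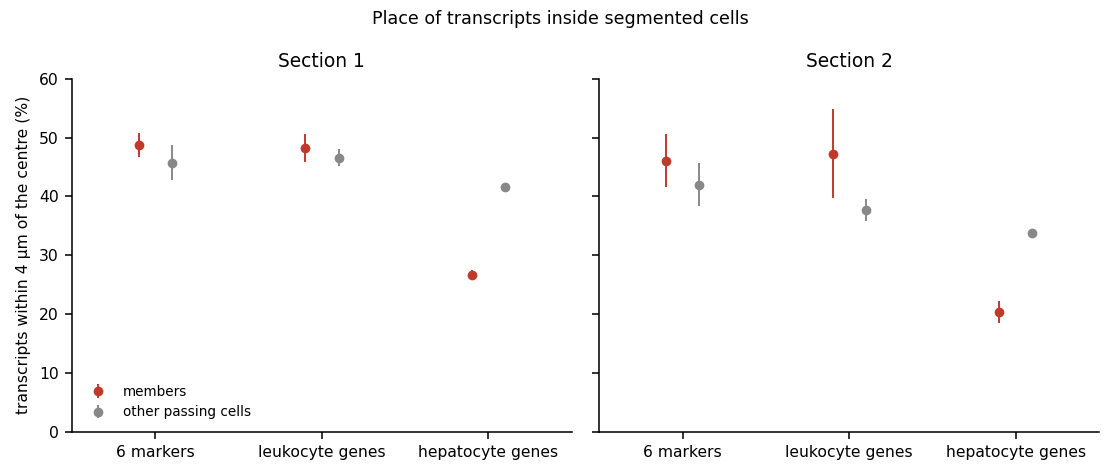
Share of transcripts within 4 µm of the cell centre (y axis, %, with exact 95% intervals) for 3 groups of genes in members (red) and other cells that passed the limits (grey). Marker and leukocyte transcripts of members lie between 46.1% and 48.7%, and hepatocyte transcripts of members at 26.7% and 20.3%.

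Levels of some named genes followed the number of marker counts a cell held, and those of others changed less. In section 1, Adpgk stood at 5.47 in cells with 0 marker counts, 18.3 with 1, 46.0 with 2, 74.9 with 3 to 4 and 205.9 with 5 or more. In section 2 it was 4.26, 19.3, 42.4 and 105.8 over the first 4 of these classes, and the last held 5 cells and was set aside. Sorl1 ran from 3.53 to 99.2 in section 1 and from 1.53 to 41.1 in section 2. Klf1 ran the other way, from 94.8 to 19.6 in section 1 and from 47.9 to 0 counts in section 2, which allows up to 21.7. Hp lay between 817.1 and 986.2 in section 1 and between 1472 and 1652 in section 2. Its highest level in section 1, 986.2 (941.2 to 1033), was at 5 or more marker counts, against 820.1 (809.7 to 830.6) at 0. Mki67, a gene of dividing cells, ran 154.8, 141.7, 156.0, 140.4 and 172.7 over the 5 classes of section 1. Over the first 4 classes of section 2 it ran 22.8, 33.3, 21.2 and 47.0, the last from 8 counts. Cells with 1 marker count, which are not members, thus lay between unmarked cells and members for Adpgk, Sorl1 and Klf1. The median number of counts per cell rose alongside, from 25 to 87 in section 1 and from 15 to 25.5 in section 2, and its part in these levels was not tested.

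**Figure D5:**
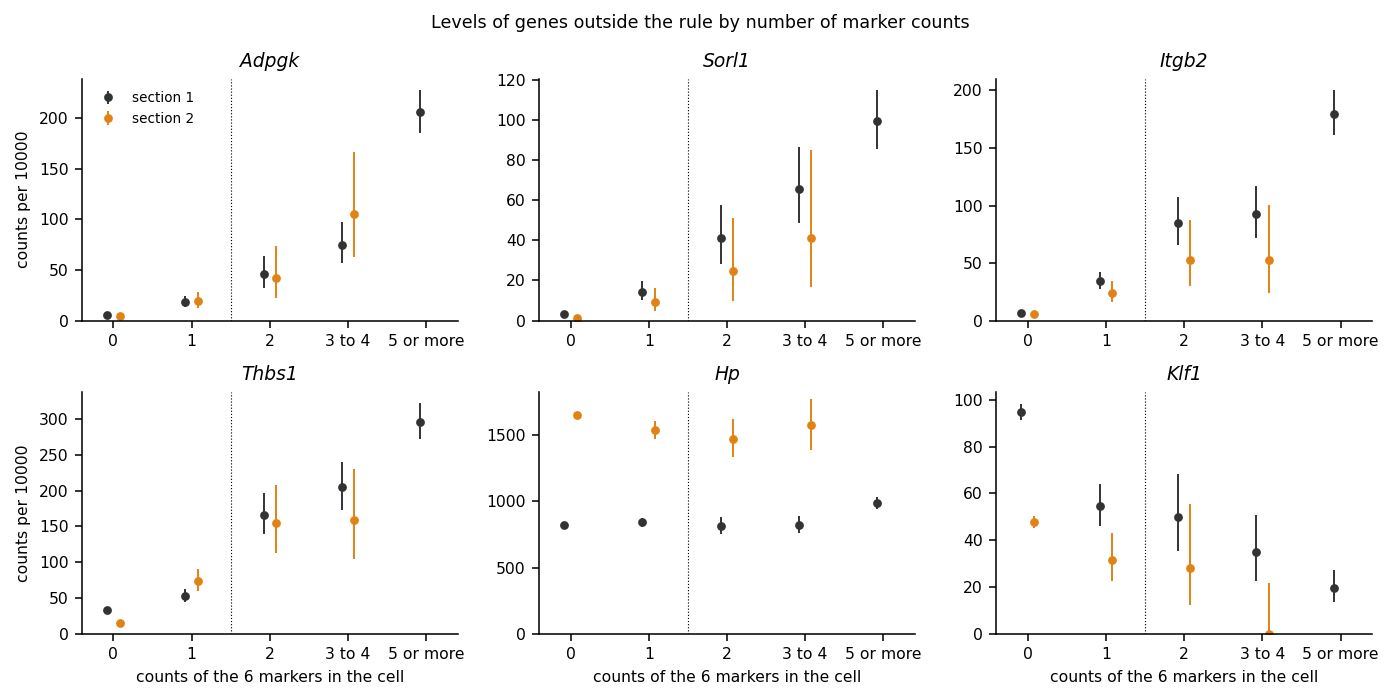
Levels (y axis, counts per 10000 with exact Poisson 95% intervals) of 6 genes by the number of marker counts in the cell (x axis) in section 1 (dark) and section 2 (orange); the dotted line is the limit for members, and the class of 5 cells in section 2 is left out. Adpgk climbs from 5.47 to 205.9 in section 1, and Hp lies between 817.1 and 986.2, highest at 5 or more marker counts.

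Macrophage-marked cells, with at least 2 counts of Clec4f, Adgre1 and Csf1r and at most 1 of the 6 markers, were compared with the members as a second myeloid population. There were 294 and 238 of them, with medians of 62.5 and 18 counts. Of 180 genes tested, 0 passed in edgeR (0%), 50 had an unadjusted p under 0.05, and the lowest adjusted p was 0.0604. DESeq2 called 20 and edgeR without TMM called 50, so this result turned on the setting. The prior degrees of freedom were 1.27 in this fit and infinite in the fit against other cells. The 0 calls here and the 55 there are therefore not on one scale, and 0 calls do not show that the groups are alike. Thbs1, for one, had a log2 change of 3.29 (SE 0.18) at an edgeR adjusted p of 0.0604, from 50 and 10 counts in macrophage-marked cells. Among the genes named above, Thbs1 stood at 22.8 and 20.5 in macrophage-marked cells, Srgn at 1.83 and 4.10 and Sorl1 at 6.40 and 6.16, all below the levels in members given above. Srgn rested there on 4 and 2 counts and Sorl1 on 14 and 3, not above the highest blanks of these cells, at 16 and 3. Itgb2 was 36.1 and 32.8, and Cyba 21.5 and 96.5, closer to the members. Ctsb stood at 1132 and 726.5 in macrophage-marked cells, Cd68 at 16.4 and 20.5 and Mrc1 at 37.0 and 22.6, against 3.57 and 2.12 for Cd68 and 7.73 and 2.12 for Mrc1 in members. Itgal stood at 147.1 and 117.0 there, against 103.4 and 57.3 in members.

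Members were further split by their receptors as a description. Members with Csf3r or Cxcr2 and no Ly6c2 numbered 190 and 34, and those with Ly6c2 and neither receptor 58 and 64. The planned test needed 50 cells in each and was not run. Adpgk stood at 148.4 (exact 95% interval 128.0 to 171.2) on the receptor side and 92.4 (66.0 to 125.9) on the Ly6c2 side in section 1, and at 67.0 and 46.9 in section 2 with intervals that overlap. Thbs1 was 292.1 and 284.3 in section 1. Slc16a3 ran the other way, at 21.3 (14.1 to 31.0) and 37.0 (21.1 to 60.1). Of these 3 genes, Adpgk alone had intervals that did not overlap in section 1. The share of such genes over the whole panel is not given, and transcripts of 1 cell are not independent. A difference between the sides was therefore not tested for any gene.

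Members lay close to each other. Within 50 µm of a member, 10.9% of neighbouring cells in section 1 and 3.19% in section 2 were members, against 4.05% and 1.08% around other cells, ratios of 2.69 and 2.97. At least 1 further member stood within 50 µm of 55.5% and 35.5% of members, against 32.4% and 16.1% of other cells. The median distance to the next member was 37.6 and 85.9 µm, and 29.9% and 9% of members had one within 15 µm. Erythroid-marked cells were 1.24 times as frequent around members as around other cells in each section, and macrophage-marked cells 1.14 and 1.24 times. Counts of Glul, Cyp2e1 and Gulo, genes of hepatocytes near the central vein, over those of Pck1, Ass1 and Hsd17b13, genes of the portal side, were lower around members by 0.22 and 0.24 on the log2 scale. With 2 sections no test was made of these shares.

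Among the image stains of the same cells, the Ttr channel differed far more in section 1. The median Ttr channel signal per volume was 344630 in members and 519930 in other cells there, and 168360 and 170450 in section 2. The Cellbound3 channel was lower in members of both sections, at 57894 against 77942 and 274390 against 369780. Cellbound1 was higher, at 60075 against 46302 and 32058 against 30297, also with the wider gap in section 1. Cellbound2 was lower in both sections, at 152510 against 173050 and 49543 against 61112. Its macrophage-marked values were 154480 and 56160. Low Ttr and Cellbound3 signals in section 1 were not particular to members, since macrophage-marked cells stood at 343380 and 56728 there. In section 2 they stood at 160260 and 345470. For Cellbound1 macrophage-marked cells stood at 44124 and 31724 in the 2 sections. DAPI, a DNA dye, was 686560 against 686710 and 223690 against 180140. The scale of the channels differed between sections, so members were set only against other cells of their own section.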

How the data were processed

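Raw counts per segmented cell were deposited by the authors for 500 genes and 50 blank barcodes, per the file headers, beside cell volumes and positions, image intensity values per stain and a list of decoded transcripts. Image intensity columns are deposited on a linear scale and were divided by cell volume. Decoding and segmentation software is not given in the sources used here. The headers name no unit of length, which was taken as µm. No cell identifier was shared by both sections (0 shared).

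The members and gene lists were chosen with earlier results of these data known; the lists of shared leukocyte, neutrophil, monocyte and dendritic cell genes of the panel were written once its gene names were known. Counts were summed by section and cell group over 491 genes, without the 9 rule genes and the blanks. Sums held 33654 and 4714 counts in members and 350892 and 292525 in other cells. Genes with at least 50 counts over the 4 sums entered edgeR 4.0.16 (R 4.3.3; TMM, section as a block, 1 residual degree of freedom, moderated across genes), with DESeq2 1.42.0 as an alternative. In the comparison with other cells the prior degrees of freedom were infinite, so the spread was shared over genes and not estimated for each gene. Python 3.11.15 and scipy 1.17.1 gave exact intervals. Named were the 15 largest and 8 most negative log2 changes among genes past an adjusted p of 0.05 with 1 direction in both sections, every tested gene of the granulocyte, monocyte and adhesion lists, and the 9 rule genes. On simulated counts the comparison with other cells, over 416 genes, recovered 67.0% of 4-fold and 8.14% of 2-fold changes and called 0.905% of unchanged genes. The simulated dispersion was set below the 0.033 of the real fit, and both sections shared the same mean levels. These rates therefore hold for milder conditions than the data. No doublet caller was run. Some genes that the rule names are not reported here.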

Additional observations from a re-analysis of the deposited data

Results flagged for a closer look

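Marker transcripts that fell outside every segmented outline were used in no comparison. Transcripts of the 6 markers in no cell numbered 796 of 4360 in section 1 (18.3%) and 831 of 3068 in section 2 (27.1%). Per gene this was 133 and 139, against 106 and 35.1 per blank barcode, so the mean over the 6 markers was above the blanks in that space. Single markers were not all above them: in section 1 Ly6c2 had 77 and Cxcr2 33, below the mean blank, and Cybb 107, and in section 2 Cxcr2 had 18. Over all genes 40.1% and 34.4% of transcripts lay in no cell. In section 2 a further 1027 marker transcripts (33.5%) were in cells under the count or volume limit, against 186 (4.27%) in section 1.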

How the results depend on the processing

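Against all other cells, 55 genes passed in the edgeR fit as reported. DESeq2 called 30 (21 higher, 9 lower), no filter on genes 36 (30 and 6), no section block 6 (all higher), at least 3 marker counts 13 (all higher) and cells of 10 to 30 counts outside the rule 26 (12 and 14, with 16 of the 55 among them). Cells with at least 20 counts gave 63 (34 and 29), no TMM 53 (40 and 13), and the volume limit changed nothing. Against macrophage-marked cells, 0 genes passed as reported and no TMM called 50, DESeq2 20, no filter on genes 59, no section block 6, at least 20 counts 24, at least 3 marker counts 31, at least 2 different markers 42, macrophage markers at 0 31 and 10 to 30 counts 9; the cause was not tested. At radii of 30 and 100 µm, members among neighbours were 3.56 and 1.82 times as frequent around members in section 1 and 3.56 and 1.89 times in section 2. Erythroid-marked cells gave 1.2 and 1.36, then 1.33 and 1.37. Macrophage-marked cells gave 1.01 at 30 µm in section 1, then 1.36 and 1.17 in section 2. The log2 difference of central over portal counts in section 2 was -0.38 and -0.18. Leaving out a section leaves 1 sum per cell group and no test, and Zmpste24, called higher, was at -0.42 in section 2 alone. The sections are paired in the reported fits, which compare cell groups of a section with the section as a block. The split of members by receptor was not fitted, because of the minimum of 50 cells a group set for it. Depth limits section 2, where members held 4714 counts outside the rule.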

Other observations

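In section 2 the members held 16.3% of all transcripts of the 6 markers, and in section 1 52.2%. Nfkbia, an inhibitor of NF-kB that NF-kB itself induces, rose by 1.84 on the log2 scale (SE 0.36), at 26.7 against 8.24 and 57.3 against 11.6. Tnf, an inflammatory cytokine, was the 1 of 10 tested genes of the inflammatory list to rise, from 22 and 4 counts in members, where 10.6% of all tested genes were called higher. Ramp1, an accessory chain of the receptor for calcitonin gene-related peptide, rose by 2.21 (SE 0.38) from 61 and 19 counts in members. Nfkbia and Ramp1 were picked after their values were seen.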
